A study of Mus musculus with 10 samples.

Results

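The 7 Schlafen genes Slfn1, Slfn2, Slfn3, Slfn4, Slfn5, Slfn8 and Slfn9 were examined in regulatory T cells (Treg), a suppressive CD4 lineage defined by the transcription factor Foxp3. They were found by gene symbol among the 32767 genes of each table, and each symbol had 1 row. The libraries came from C57BL/6 mice, from spleen and lymph nodes, after magnetic enrichment of CD4 cells and sorting for the YFP that marks Foxp3-cre. Both groups carried the Foxp3cre/wt allele: WT mice had the genotype Tcf7wt/wt and Lef1wt/wt (2 libraries), and dKO mice had Tcf7fl/fl and Lef1fl/fl (2 libraries), so that Tcf7, the gene of TCF1, and its relative Lef1 are targets of the recombinase in Treg. Because the cre allele is heterozygous and Foxp3 is X-linked, each animal also keeps Treg that do not express the recombinase, and these were not sorted. The labels give neither the age of the mice nor whether replicates came from separate animals, so the spread behind every p-value is that of these libraries and may be technical.

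Expression is given as FPKM, a fragment count divided by transcript length in kilobases and by library size, so values are per length and can be compared between genes as levels. Between 10435 and 10678 genes per library reached 1 FPKM. The absolute depth is unknown; judged by the FPKM worth of 1 fragment, and with WT replicate 1 set to 100%, relative depth was 72.0% for WT replicate 2, 67.7% for dKO replicate 1 and 71.1% for dKO replicate 2. FPKM summed over all genes was 599231 and 619340 for WT and 726571 and 719527 for dKO, while the median log2 fold change of all tested genes was 0.013. Lef1 fell from 160.4 and 166.5 FPKM (WT) to 71.6 and 62.8 FPKM (dKO), with a limma adjusted p of 0.0159. Tcf7 had 456 and 501 FPKM (WT) and 316 and 271.5 FPKM (dKO), a log2 fold change of -0.70 that missed the threshold of 0.05 (limma adjusted p = 0.0805). In bulk RNA, fewer cells of a type and less RNA per cell cannot be told apart. A gene-level value includes exons that remain after recombination, so it checks the genotype only in part. All 10 markers listed for T cells and Treg were present, with Foxp3 between 106 and 126 FPKM, and none passed the threshold. By unadjusted limma p under 0.05, 3 of them were higher and 4 lower in dKO, against 8.72% and 8.63% of all tested genes. Cd4, among the lower, had 384 and 411 FPKM (WT) and 187.5 and 264.5 FPKM (dKO). Ikzf2, also among the lower, had 77.3 and 60.4 FPKM (WT) and 27.9 and 46.9 FPKM (dKO). Cd3d was among the lower, and Cd3e and Cd3g were among the higher. Il2ra, among the higher, had 176 and 187 FPKM (WT) and 209 and 248.5 FPKM (dKO).

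Schlafen genes take their name from the German word for sleep, because forced expression of Slfn1 stopped the growth of mouse T cells. Slfn2 is best known from the elektra mouse, in which its mutation leaves T cells unable to stay quiescent, and in mouse T cells the SLFN2 protein binds tRNA and shields it from cleavage by the nuclease angiogenin. Members fall into short, intermediate and long forms, which share an N-terminal core, and the long forms add a helicase-like region. Several members are induced by type I interferon.

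The members form 1 cluster on mouse chromosome 11 (GRCm38), from base 82951349 to base 83215154, a span of 263.8 kb that begins 30.7 Mb beyond the end of Tcf7 on the same chromosome. In order along the chromosome they are Slfn5, Slfn9, Slfn8, the pseudogene Slfn10-ps, Slfn2, Slfn1, Slfn4 and Slfn3. Slfn9, Slfn8 and Slfn10-ps are on the minus strand and the others on the plus strand. Slfn5 covers bases 82951349 to 82964840, Slfn9 82978390 to 82991830 and Slfn8 83002158 to 83020810. Slfn2 covers 83065112 to 83070678, Slfn1 83116849 to 83122670, Slfn4 83175186 to 83190216 and Slfn3 83191330 to 83215154. In the GENCODE vM21 annotation the longest coding sequences are 1014 bases for Slfn1 and 1137 bases for Slfn2 (short forms), 1923 for Slfn3 and 1809 for Slfn4 (intermediate forms), and 2655 for Slfn5 and 2733 for each of Slfn8 and Slfn9 (long forms).

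The promoters of the short and intermediate members shared a stretch that those of the long members lacked, and the reverse held for another motif, so both are shown. All 7 members had an entry in the RefSeq promoter table (GRCm38.p6), which covers 250 bases before to 50 bases after a start site, and these 300 bases were searched on both strands. The ETS-type letters ACTTCCTGG, chosen after these sequences had been read, stood in Slfn1, Slfn2, Slfn3 and Slfn4, 74, 55, 42 and 73 bases before the start site, and in 0.843% of all 32851 promoters. The 250 bases before the start of Slfn1 (chr11:83116570-83116819, plus strand) and of Slfn2 (chr11:83064862-83065111, plus strand) and 60 bases around the match in Slfn3 (chr11:83191263-83191322, plus strand) and Slfn4 (chr11:83175088-83175147, plus strand) are given 5′ to 3′ from RefSeq, with the match in capitals.
Slfn1: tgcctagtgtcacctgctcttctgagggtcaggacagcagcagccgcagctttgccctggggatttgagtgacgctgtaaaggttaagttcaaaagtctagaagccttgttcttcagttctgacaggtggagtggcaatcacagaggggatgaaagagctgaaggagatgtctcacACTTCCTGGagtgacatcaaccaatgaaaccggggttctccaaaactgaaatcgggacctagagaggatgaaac
Slfn2: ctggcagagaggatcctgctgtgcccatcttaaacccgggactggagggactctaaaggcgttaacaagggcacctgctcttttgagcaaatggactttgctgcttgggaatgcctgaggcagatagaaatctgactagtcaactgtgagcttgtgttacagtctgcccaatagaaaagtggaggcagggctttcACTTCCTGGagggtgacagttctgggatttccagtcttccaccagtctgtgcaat
Slfn3: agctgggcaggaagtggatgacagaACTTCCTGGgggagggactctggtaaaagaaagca
Slfn4: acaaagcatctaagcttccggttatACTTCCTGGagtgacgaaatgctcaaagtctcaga

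The core of the interferon-stimulated response element, GAAANNGAAA or TTTCNNTTTC on the other strand, stood in the promoters of the long members Slfn5, Slfn8 and Slfn9 and in 3.44% of all promoters. It lay 155 bases before the start in Slfn5, 45 in Slfn9, and 48 or 136 in Slfn8, which has 2 listed start sites. Slfn8 and Slfn9 held the same letters in nearly the same surroundings. The 60 bases around the match are chr11:82951922-82951981 (plus strand) for Slfn5, chr11:83020824-83020883 (minus strand) for Slfn8 and chr11:82991841-82991900 (minus strand) for Slfn9, written in the direction of the gene with the match in capitals. In GENCODE the stretch of Slfn5 lies within an intron of 1 Slfn5 transcript and of the antisense gene Slfn5os.
Slfn5: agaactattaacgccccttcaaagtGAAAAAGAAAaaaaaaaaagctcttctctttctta
Slfn8: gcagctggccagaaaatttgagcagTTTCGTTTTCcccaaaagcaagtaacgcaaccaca
Slfn9: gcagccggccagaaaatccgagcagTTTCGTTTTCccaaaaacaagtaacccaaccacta

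Letters bound by TCF and LEF factors were searched as CTTTGAT and CTTTGAA, found in 3.73% and 5.14% of all promoters. CTTTGAT occurred in Slfn8 and CTTTGAA in Slfn5, where it lies next to the interferon element, and the other 5 members held neither in this window. The related letters CTTTGTT were not part of the search. Their other-strand form AACAAAG stands in the Slfn2 window after the start site, and its share over all promoters was not counted. The gamma-activated site TTCNNNGAA, held by 8.30% of all promoters, occurred in none of the 7. These matches describe letters only and say nothing of binding in these cells.

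Schlafen genes ranged from among the most abundant transcripts of these Treg to nearly undetected ones. Slfn2, the quiescence member, had the highest level of the family, with 329.7 and 350.7 FPKM (WT) and 314.5 and 356.7 FPKM (dKO), and its mean ranked 220 among 10710 tested genes. Slfn1, the growth-suppressing founder of the family, followed with 141.6 and 160.3 FPKM (WT) and 182.9 and 189.9 FPKM (dKO), at rank 471. The groups of Slfn2 overlapped, and both dKO libraries of Slfn1 lay above both WT libraries. These orders hold for FPKM as deposited. FPKM summed over all genes was higher in both dKO libraries, and dividing by that sum was not tested. The long members Slfn5 and Slfn8 came next: Slfn5, a nuclear member in human cells, had 55.0 and 66.3 FPKM (WT) and 71.8 and 63.4 FPKM (dKO). Slfn8 had 42.0 and 42.8 FPKM (WT) and 45.7 and 41.5 FPKM (dKO). For both of these genes 1 dKO library lay inside or below the WT values.

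**Figure D1:**
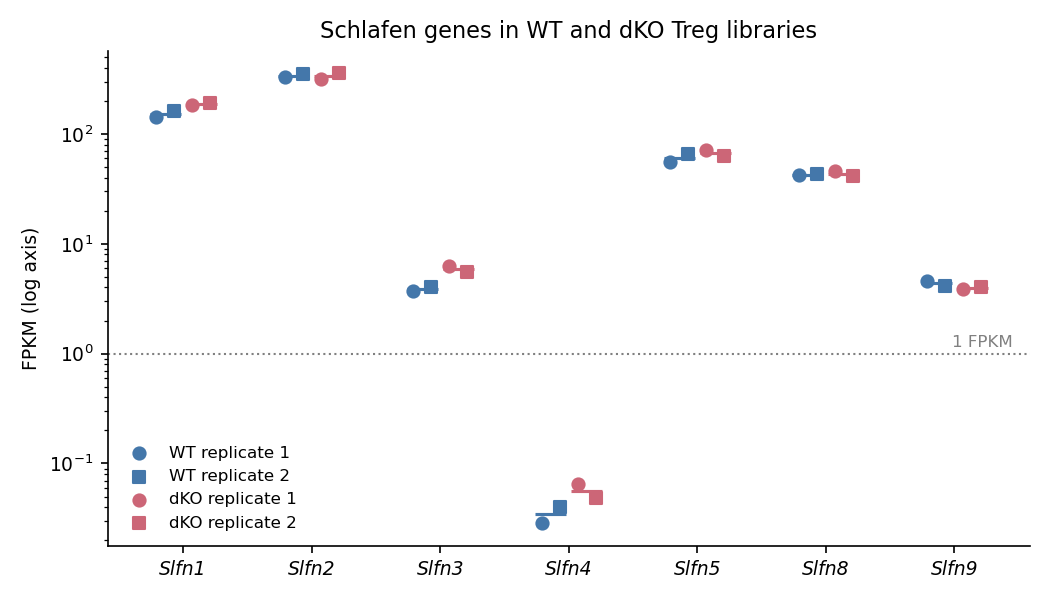
FPKM (log axis) of the 7 Schlafen genes in each library, circles for replicate 1 and squares for replicate 2, with short lines at the group means (n = 2). Slfn2 is highest in every library, Slfn4 lies far under the dotted line at 1 FPKM, and the dKO points of Slfn1 and Slfn3 lie above the WT points.

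The remaining members were weak. Slfn3, an intermediate form, had 3.73 and 4.04 FPKM (WT) and 6.29 and 5.58 FPKM (dKO), with both dKO libraries higher. Slfn9, the neighbour and close copy of Slfn8, had 4.61 and 4.12 FPKM (WT) and 3.85 and 4.06 FPKM (dKO), with both dKO libraries lower by a small margin. Slfn4, known in mice as an interferon-induced gene of myeloid cells, had 0.029 and 0.040 FPKM (WT) and 0.065 and 0.048 FPKM (dKO). It was the 1 member of 7 that failed the filter of at least 1 FPKM in at least 2 libraries and was not tested. In descending order of the mean the levels were Slfn2, Slfn1, Slfn5, Slfn8, Slfn3, Slfn9 and Slfn4, and of these neighbours only Slfn3 and Slfn9 changed places between the groups (WT means of 3.88 and 4.37 FPKM, dKO means of 5.93 and 3.96 FPKM). Their values over the 4 libraries overlapped, while those of all other neighbours in this order did not.

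Members that share promoter letters had unlike levels, and what sets the levels was not tested. The short Slfn1 and Slfn2, which were highest, and the intermediate Slfn3 and Slfn4 share the ETS-type letters shown above, and their means over the 4 libraries ran from 338 FPKM for Slfn2 down to 0.046 FPKM for Slfn4. The long Slfn8 and Slfn9, with near-identical surroundings of the interferon element, had means of 43.0 and 4.16 FPKM.

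**Figure D2:**
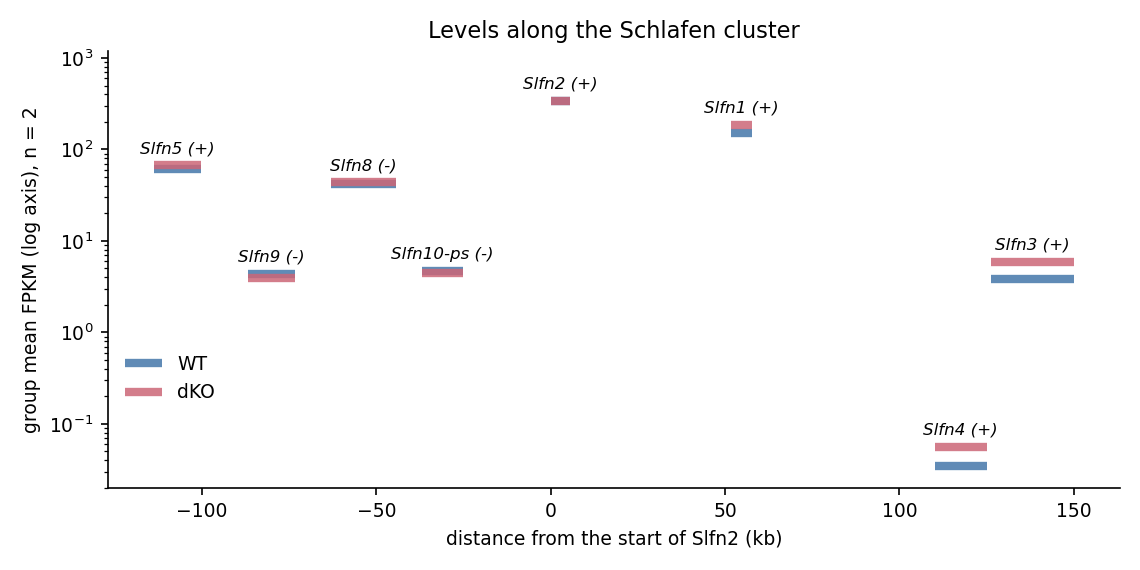
Group mean FPKM (log axis, n = 2) of the 7 members and the pseudogene Slfn10-ps against distance in kb from the start of Slfn2; each bar spans the gene body and the sign gives the strand. The highest genes, Slfn2 and Slfn1, are neighbours, as are the weak Slfn4 and Slfn3, and Slfn4, the lowest, starts 110.1 kb from the start of Slfn2.

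The comparison of dKO with WT asked whether Schlafen expression differs in Treg when Tcf7 and Lef1 are targeted. No member passed limma's test over all 10710 genes: 0 of 6 tested members were called, against 0.700% of all tested genes (34 higher and 41 lower). At an unadjusted p under 0.05, 2 of 6 were higher in dKO, Slfn1 and Slfn3, against 8.72% of all tested genes. Slfn3 had a log2 fold change of 0.50 (SE 0.12, 95% interval 0.19 to 0.81, limma adjusted p = 0.157) and a ratio of group means of 1.53. Slfn1 had a log2 fold change of 0.31 (SE 0.08, 95% interval 0.09 to 0.52, limma adjusted p = 0.197), from 151 ± 13.2 to 186 ± 4.94 FPKM (SD, n = 2). Log2 fold changes are on log2(FPKM + 1), which understates those of weak genes such as Slfn3.

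The other tested members had smaller differences. Slfn5 had a log2 fold change of 0.16 (95% interval -0.15 to 0.47, limma adjusted p = 0.553) and Slfn8 one of 0.04 (-0.16 to 0.24, limma adjusted p = 0.841). Slfn9 had -0.11 (-0.42 to 0.20, limma adjusted p = 0.677). Without WT replicate 1 the values of Slfn5 and Slfn9 were 0.03 and -0.05, and without WT replicate 2 they were 0.29 and -0.18. Slfn2 had -0.02 (limma adjusted p = 0.923), and its interval on this scale ran from 0.843-fold to 1.15-fold. Both dKO libraries lay above both WT libraries for 2 of 6 tested members (26.6% of all tested genes) and below them for 1 of 6 (24.2% of all tested genes). The median log2 fold change of the 6 was 0.098, against 0.013 for all tested genes. At the standard errors of this fit, a log2 difference of 0.69 (Slfn8) to 1.07 (Slfn9) would have been needed to match the largest p among the called genes, so smaller differences could not be called.

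**Figure D3:**
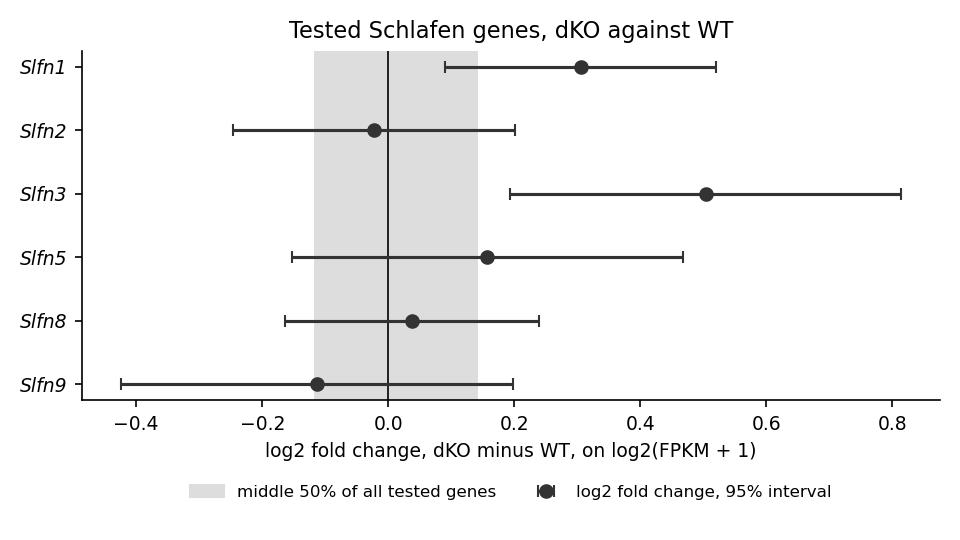
Log2 fold change (dKO minus WT, on log2(FPKM + 1)) of the 6 tested Schlafen genes with 95% intervals from limma; the grey band holds the middle 50% of all tested genes, from -0.12 to 0.14. Slfn1 and Slfn3 lie to the right of the band with intervals above 0, and the other intervals cross 0.

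Summed over the 7 members, Schlafen FPKM came to 577 and 628 in WT and 625 and 661 in dKO, with overlapping groups and a ratio of means of 1.07. Slfn2 supplied 57.2% and 55.8% of this sum in WT and 50.3% and 53.9% in dKO. Slfn1 supplied 24.5% and 25.5% in WT and 29.3% and 28.7% in dKO, so its share was higher in both dKO libraries than in both WT libraries. The ratio of Slfn1 to Slfn2 within a library, which does not depend on scaling between libraries, was 0.429 and 0.457 in WT and 0.582 and 0.532 in dKO. The difference of the log2 ratios was 0.33, with an exact two-sided permutation p = 0.333, the smallest that 2 against 2 libraries allow. The ratio of Slfn3 to Slfn2 was 0.0113 and 0.0115 in WT and 0.02 and 0.0156 in dKO, a log2 difference of 0.63 with the same exact permutation p = 0.333. For Slfn9 to Slfn8 the ratios overlapped (0.110 and 0.0963 against 0.0843 and 0.0979).

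**Figure D4:**
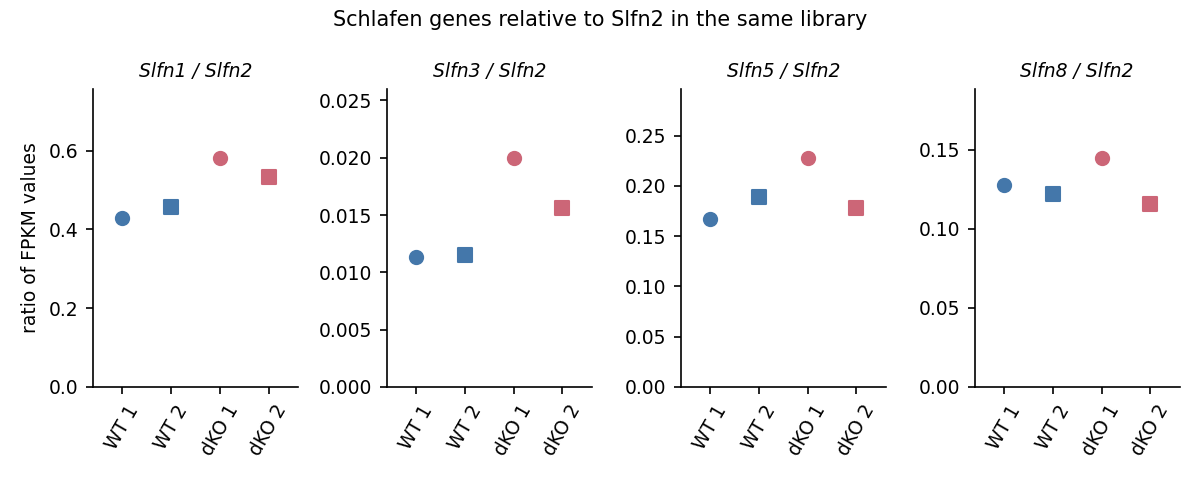
Ratio of the FPKM of Slfn1, Slfn3, Slfn5 and Slfn8 to that of Slfn2 in each library, each panel on its own linear axis from 0. The dKO points of Slfn1 and Slfn3 lie above the WT points, and those of Slfn5 and Slfn8 overlap with them.

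Close copies within the family limit the weak members. The coding sequences of Slfn8 and Slfn9 were 92.7% identical over their alignment and those of Slfn3 and Slfn4 92.2%, while all other pairs had 75.4% or less. Of the 50-base windows of the Slfn3 transcript, 13.1% occurred in a transcript of Slfn4, and of those of Slfn8 15.4% occurred in another Schlafen gene, including 10.7% in Slfn10-ps. Few windows of Slfn1 (0.606%), Slfn2 (4.27%) and Slfn5 (0%) occurred in the other members or Slfn10-ps. Windows were not searched in genes beyond these. How the authors' counting divided shared fragments is not given in the sources used here, so the levels of Slfn3, Slfn4, Slfn8 and Slfn9 are less certain. Slfn5 overlaps the antisense gene Slfn5os, which had 0.092 to 0.195 FPKM, and whether fragments were assigned by strand is also not given. Of 3 related genes, Slfn10-ps had 4.44 and 4.88 FPKM (WT) and 4.02 and 4.81 FPKM (dKO) (limma adjusted p = 0.835), Slfn14 was listed at 0 in the 4 libraries, and Slfnl1, which lies on another chromosome, did not exceed 0.0437 FPKM.

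None of the other quiescence factors was called. Of 18 listed genes that keep T cells resting, 16 were tested and 0 passed, with 12 negative and 4 positive log2 fold changes and a median of -0.04. At an unadjusted limma p under 0.05, 1 was higher and 2 were lower, against 8.72% and 8.63% of all tested genes. Klf2, a transcription factor of resting and recirculating T cells, had 281 and 277 FPKM (WT) and 445 and 400.0 FPKM (dKO) (log2 fold change 0.60, SE 0.08, limma adjusted p = 0.0694). It was called in 3 alternatives, without dKO replicate 2 (limma adjusted p = 0.0443), with quantile normalization (0.0425) and without genes listed at 0 (0.043), within a range of 0.0425 to 0.335 over the alternatives. The antiproliferative genes Tob2, Tob1 and Btg1 had log2 fold changes of -0.29, -0.22 and -0.21, each with both dKO libraries below both WT libraries, and missed the threshold (limma adjusted p = 0.226, 0.368 and 0.238). Without dKO replicate 1 the value of Tob1 was -0.11 and without dKO replicate 2 it was -0.33, while Tob2 ranged from -0.38 to -0.19 and Btg1 from -0.26 to -0.16 over the 4 libraries left out.

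Interferon-stimulated genes, the class that several Schlafen genes belong to, had positive values in 22 of the 24 that were tested, against 52.8% of all tested genes. Their median log2 fold change was 0.21, against 0.013 for all tested genes. In limma's test 0 passed, and at an unadjusted p under 0.05 there were 11 higher and 1 lower, against 8.72% and 8.63% of all tested genes. Oasl1 and Oasl2, relatives of the oligoadenylate synthetases, had log2 fold changes of 0.63 and 0.55, and Ifit3 and Ifit1, which bind viral RNA, 0.67 and 0.52 (limma adjusted p = 0.109, 0.152, 0.190 and 0.174). The 1 gene counted as lower was the oligoadenylate synthetase gene Oas1a, with 7.29 and 5.19 FPKM (WT) and 2.16 and 4.26 FPKM (dKO). Its log2 fold change of -0.81 was the largest of the 24 in absolute value (limma adjusted p = 0.265). The Schlafen members with the interferon element in the promoter windows shown above, Slfn5, Slfn8 and Slfn9, had 0.16, 0.04 and -0.11. Of 15 genes of interferon signalling, 0 passed, and the median was 0.08. At an unadjusted limma p under 0.05, 3 were higher and 2 lower, against 8.72% and 8.63% of all tested genes. The transcription factor Irf7 had 37.4 and 38.0 FPKM (WT) and 60.6 and 51.4 FPKM (dKO) (limma adjusted p = 0.106), and Irf1 had a log2 fold change of 0.24 (limma adjusted p = 0.292). The interferon-gamma receptor gene Ifngr1 (-0.37) and the kinase gene Jak1 (-0.24) had lower values in both dKO libraries without passing (limma adjusted p = 0.136 and 0.255). Irf1 had 0.14 without dKO replicate 1 and Jak1 -0.15 without dKO replicate 2, and Ifit3 had 0.43 without WT replicate 1.

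**Figure D5:**
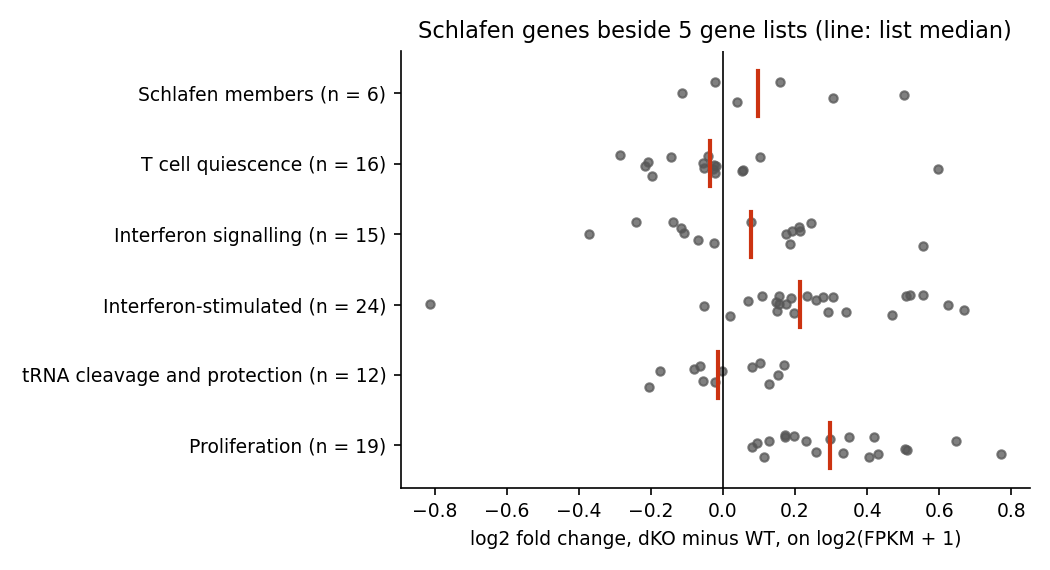
Log2 fold change (dKO minus WT, on log2(FPKM + 1)) of each tested gene of the Schlafen family and of 5 lists, with list medians as lines; vertical scatter only separates points. Schlafen genes span -0.11 to 0.50, and no point in the plot belongs to a called gene.

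Genes of tRNA cleavage and protection, the process in which SLFN2 acts, showed no called member among 12 tested, with 5 positive and 7 negative values and a median of -0.01, and 1 was lower at an unadjusted limma p under 0.05 (8.63% of all tested genes). That median was 0.04, 0.04 and 0.05 without WT replicate 1, WT replicate 2 and dKO replicate 1, and -0.07 without dKO replicate 2. Rnh1, the inhibitor of angiogenin-type ribonucleases, had 47.2 and 47.3 FPKM (WT) and 41.2 and 42.2 FPKM (dKO) (limma adjusted p = 0.277). Elac2, a tRNA-processing nuclease, and Nsun2, a tRNA methyltransferase, had log2 fold changes of 0.15 and 0.08 (limma adjusted p = 0.476 and 0.601). Elac2 had 0.07 without WT replicate 1 and 0.24 without WT replicate 2, and Nsun2 had 0.13 without dKO replicate 1 and 0.03 without dKO replicate 2. Ang itself, the angiogenin gene, was near the filter, at 0.78 to 1.25 FPKM. Proliferation genes, the counterpart of quiescence, had positive values in 19 of the 19 that were tested, against 52.8% of all tested genes. Their median was 0.30, and 0 passed, with 2 higher at an unadjusted limma p under 0.05 (8.72% of all tested genes). Their summed FPKM was 432 and 374 in WT and 438 and 514.5 in dKO, so replicates of a group differed as well. Mcm3, Mcm5, Mcm7 and Mcm2, subunits of the replication helicase, had log2 fold changes of 0.51, 0.43, 0.23 and 0.20 (limma adjusted p = 0.153, 0.259, 0.333 and 0.301). Mcm5 had 0.27 without WT replicate 2, and Mcm7 had 0.13 without dKO replicate 2. The median without WT replicate 2 was 0.07 and without WT replicate 1 it was 0.59; without dKO replicate 1 and without dKO replicate 2 it was 0.52 and 0.12, respectively. Any part of proliferation in the Schlafen levels was not tested.

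Around the cluster, within 1 Mb of its ends, 69 other genes were listed, of which 23 were tested, among them Slfn10-ps. Of these, 1 was called higher and 0 were called lower, against 0.700% of all tested genes called in either direction, and the median log2 fold change was 0.02. By unadjusted limma p under 0.05, 6 were higher and 1 was lower, against 8.72% and 8.63% of all tested genes. Both dKO libraries lay above both WT libraries for 9 and below them for 3, against 26.6% and 24.2% of all tested genes. The called gene was Taf15, an RNA-binding component of the transcription machinery, at 83473086 to 83506743, 258 kb beyond the last member. It rose from 41.9 and 46.6 FPKM (WT) to 82.5 and 77.0 FPKM (dKO) (log2 fold change 0.84, SE 0.08, limma adjusted p = 0.0424). Its call was lost without WT replicate 1, WT replicate 2 or dKO replicate 1 (limma adjusted p = 0.246, 0.222 and 0.0891), with the replicate block (0.114), without the filter (0.163) and without the variance trend (0.0815). The chemokine gene Ccl5, 311 kb beyond the last member, had 35.1 and 16.9 FPKM (WT) and 65.4 and 84.1 FPKM (dKO) (limma adjusted p = 0.151). The small nucleolar RNA gene Snord7, 79 kb beyond, was listed at 0 in WT replicate 2, at 33.0 FPKM in WT replicate 1 and at 195 and 129.6 FPKM in dKO (limma adjusted p = 0.249).

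Over the 4 libraries, the 5 genes outside the family whose pattern was most like that of Slfn2 were Pex2, Larp4, Polr3k, Tuba1c and Chmp5. Likeness was the Euclidean distance between the log2(FPKM + 1) values of the 4 libraries, each gene centred on its own mean, over 8347 genes with a mean of at least 5 FPKM. These distances ran from 0.018 to 0.026, against a median of 0.242. Like Slfn2, each of the 5 was lowest in dKO replicate 1 and highest in dKO replicate 2. Pex2, for example, had 18.35 and 19.55 FPKM (WT) and 17.7 and 20.1 FPKM (dKO). The 5 were picked on these same values, so the shared order follows from the choice, and no shared function is read from it. The WT and dKO groups overlapped for Slfn2 and for each of the 5.

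Markers of other cells moved with single libraries or with the groups. Of 8 myeloid markers the summed level was 8.83 and 3.36 FPKM (WT) and 5.22 and 67.8 FPKM (dKO), with Lyz2 at 31.9 FPKM in dKO replicate 2 and at most 3.56 FPKM elsewhere. Slfn4, which is under the filter, had 0.048 FPKM in that library and 0.065 FPKM in dKO replicate 1. Without dKO replicate 2 the log2 fold changes of Slfn1 and Slfn3 were 0.28 and 0.58. Of 6 B cell markers, 5 stayed under 1 FPKM in the 4 libraries, and the summed level, 15.5 and 15.2 FPKM (WT) and 23.5 and 24.7 FPKM (dKO), came nearly all from Cd79b (limma adjusted p = 0.0619). The 6 CD8 T and NK markers summed to 33.9 to 50.7 FPKM, the 4 plasmacytoid dendritic cell markers to 7.86 to 14.8 FPKM and the 4 erythroid markers to 0 to 2.94 FPKM. Within these lists the levels differed: Ncr1 was at most 0.0733 FPKM and Nkg7 had 15.9 to 31.8 FPKM. Siglech was at most 0.535 FPKM, Tcf4 had 1.58 to 1.86 FPKM and Ccr9 5.95 to 12.8 FPKM. The part of all these cells in the Schlafen levels was not tested.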

How the data were processed

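RNA was measured in 2 WT and 2 dKO libraries made, per the labels' protocols, with the RNeasy Plus Mini and TruSeq Stranded mRNA kits. The deposited values are FPKM; the authors used STAR and Cuffdiff with GRCm38, per the submitters' processing notes, and versions, annotation and scaling were not given in the sources used here. Blank rows were dropped, and 27 gene names turned into dates were restored by identifier. The 6 libraries of sorted subsets were not used, since by their identifiers B2m, Gapdh and Foxp3 are at 0 in all 6. Tests used limma 3.58.1 (R 4.3.3) on log2(FPKM + 1) of the 10710 genes that reached 1 FPKM in 2 or more libraries, with trended variances (2 residual and 2.85 prior degrees of freedom), two-sided, with Benjamini-Hochberg adjustment at 0.05 over all genes. The procedure was tested on simulated data. Alternatives changed the pseudocount (0.1, 0.01), filter, scaling (median or quantile), variance trend, block and libraries. Scaling to summed FPKM was not among them. Named genes are the members, Tcf7, Lef1, Foxp3, the 5 most like Slfn2, and up to 4 per list: called genes first, then the largest log2 fold changes among genes with a mean of at least 5 FPKM and no overlap between groups; markers, Ang and near relatives were named besides, and some genes are not reported here. Members and lists were chosen with earlier results of these data known. Coding sequences were aligned with Biopython 1.88.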

Additional observations from a re-analysis of the deposited data

How the results depend on the processing

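Over 13 alternatives, 76 values were recomputed for the 6 tested members, and none passed the threshold; the lowest limma adjusted p was 0.128. The sign was kept in 73 of the 76, and the others were Slfn2 without WT replicate 2 (0.022) or dKO replicate 1 (0.069) and Slfn8 without dKO replicate 1 (-0.03). Changes of filter, variance trend or block leave a gene's log2 fold change as it was, so in those settings the sign could not reverse. Leaving out each library in turn gave 0.22 to 0.39 for Slfn1, -0.11 to 0.07 for Slfn2, 0.43 to 0.58 for Slfn3, 0.03 to 0.29 for Slfn5, -0.03 to 0.11 for Slfn8 and -0.18 to -0.05 for Slfn9, and 1.02 to 1.12 for the ratio of summed FPKM. Slfn3 and Slfn9 have no value at a mean of at least 5 FPKM. The count of genes called higher was 22 with a pseudocount of 0.01, 6 without a filter, 19 without the variance trend, 12 with the replicate block and 9 to 36 without 1 library. The count called lower was 24, 0, 24 and 9 in the same settings, 26 at a mean of at least 5 FPKM, 72 without genes listed at 0 and 2 to 100 without 1 library. The cause was not tested. The median of the cluster neighbours was 0.074 at a mean of at least 5 FPKM and 0.021 to 0.102 without 1 library, that of interferon-stimulated genes 0.192 to 0.248, that of interferon signalling 0.037 to 0.119, that of quiescence genes -0.076 to -0.007, that of the tRNA genes -0.072 to 0.052 and that of proliferation genes 0.071 to 0.585. Same-numbered libraries had deviations from their group means with a correlation of 0.014 over 10710 genes. With so few libraries per group, this cannot tell whether they share more than a number. With the replicate block Slfn1 and Slfn3 had limma adjusted p = 0.256 and 0.296. The unknown depth limits Slfn4 most.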
